A study of Mus musculus with 6 samples.

Results

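The 10 fatty acid elongase and desaturase genes described here were Elovl1, Elovl2, Elovl4, Elovl5, Elovl6, Elovl7, Scd1, Scd2, Fads1 and Fads2, taken by gene symbol from 23282 entries of read counts, and all 10 were found. RNA came from one hemisphere of the forebrain, without olfactory bulb and cerebellum, of male C57BL/6J mice aged 8 to 10 weeks. In the WAS group (3 libraries), mice stood for 1 h on a platform surrounded by water (water avoidance stress, an acute psychological stressor), and control mice (3 libraries) stood for 1 h on the same platform in a container without water. The libraries, labelled as biological replicates, were made by QuantSeq 3′ mRNA-Seq, which reads the end of a polyadenylated transcript, and tissue was taken directly after the hour. The comparison asks whether the transcripts of enzymes that build unsaturated and very long fatty acids differed between the groups at that time.

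Elongases of the ELOVL family add a unit of carbons to an acyl-CoA in the endoplasmic reticulum and catalyse the first step of each elongation cycle, the condensation with malonyl-CoA. Stearoyl-CoA desaturases (SCD) place the first double bond into a saturated chain, and the FADS desaturases add further double bonds to the essential polyunsaturated fatty acids. In the brain these enzymes feed myelin lipids, synaptic membranes and the long polyunsaturated chains that phospholipases release.

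The 4 desaturases lay in 2 clusters on chromosome 19 (GRCm38, the assembly also called mm10, with GENCODE M21 annotation). Scd2 was at chr19:44293674-44306864 on the plus strand and Scd1 at chr19:44394455-44407879 on the minus strand, with Scd4 between them. Fads2 lay at chr19:10062765-10101746 on the minus strand, followed by Fads1 at chr19:10182888-10196877 on the plus strand after a gap of 81141 bases. The elongases were spread over chromosome 3 (Elovl6, chr3:129532355-129638495), chromosome 4 (Elovl1, chr4:118428093-118432953), chromosome 9 (Elovl5, chr9:77917364-77984519, and Elovl4, chr9:83778692-83806277) and chromosome 13 (Elovl2, chr13:41182381-41220405, and Elovl7, chr13:108214404-108285683). Since multiple alignments were counted, the last 500 bases of the longest coding transcript of each member were searched for stretches of 50 bases shared with any other gene. For the 10 members, 0 such stretches were found, Scd1 and Scd2 included. Only Elovl1, of these 10, overlapped another gene at its 3′ end, Cdc20 on the opposite strand. Whether the counting used strand is not given in the sources used here, and Cdc20 was counted 18 to 30 times in a library, against 112 to 209 for Elovl1.

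Promoters of RefSeq (GRCm38.p6, 250 bases before to 50 after the transcript start) were found for 7 of the 10 members, all but Scd1, Scd2 and Fads1. Shown in the direction of transcription are the 3 of 9 entries with a match to any motif searched, those of Elovl5, Elovl4 and Elovl1. Capitals mark matches on either strand to a list of 5 motifs, namely the sterol response element TCACNCCAC, the E-box CACGTG, the cyclic AMP response element TGACGTCA, the NF-Y motif CCAAT and the LXR element, a direct repeat.
Elovl5 (chr9:77917115-77917414, plus strand): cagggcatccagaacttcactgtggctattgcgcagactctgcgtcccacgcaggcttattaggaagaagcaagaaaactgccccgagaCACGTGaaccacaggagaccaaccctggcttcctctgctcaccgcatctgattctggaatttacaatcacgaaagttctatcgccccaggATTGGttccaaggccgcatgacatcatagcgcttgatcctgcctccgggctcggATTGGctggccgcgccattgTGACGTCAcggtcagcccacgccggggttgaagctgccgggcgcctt
Elovl4 (chr9:83806256-83806555, minus strand): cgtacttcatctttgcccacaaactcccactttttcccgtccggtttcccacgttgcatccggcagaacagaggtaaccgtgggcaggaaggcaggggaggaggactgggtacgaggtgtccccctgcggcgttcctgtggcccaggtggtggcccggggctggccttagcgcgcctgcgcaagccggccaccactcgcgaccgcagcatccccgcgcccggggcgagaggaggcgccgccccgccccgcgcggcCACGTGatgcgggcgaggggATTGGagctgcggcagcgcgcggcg
Elovl1 (chr4:118427843-118428142, plus strand): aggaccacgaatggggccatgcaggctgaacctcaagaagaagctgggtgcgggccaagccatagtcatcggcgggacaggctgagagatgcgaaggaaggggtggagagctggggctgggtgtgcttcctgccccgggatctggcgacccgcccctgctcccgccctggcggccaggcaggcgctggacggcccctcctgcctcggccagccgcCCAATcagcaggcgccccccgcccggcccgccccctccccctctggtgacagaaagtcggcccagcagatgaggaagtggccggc
The Elovl5 promoter held 1 E-box, 1 cyclic AMP response element and 2 NF-Y motifs, none of which overlapped. The Elovl4 promoter held 1 E-box and 1 NF-Y motif, and the Elovl1 promoter shown held 1 NF-Y motif. The other 6 entries, of Elovl6, Elovl7, Fads2, Elovl2 (2 entries) and a second one of Elovl1, held 0 matches to the 5 motifs. Of all 32851 promoters of 300 bases, 7.15% held the E-box, 1.79% the cyclic AMP response element and 37.41% the NF-Y motif. The sterol response element, present in 1.24% of all promoters, and the LXR element, present in 0.02%, had 0 matches in the 9 promoter entries of the 7 members. A match describes letters in the sequence and is not evidence of binding.

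The libraries held between 9248520 and 10502029 counts. Inside the files, the count column is headed WC in the WAS libraries and WS in those labelled control. The groups follow the sample labels, and if the labels had been swapped, each direction below would be the opposite one. The tissue composition differed between libraries. Levels are given as CPM, the count per megaread of the TMM-scaled library total. The summed level of 6 striatal genes was 106 CPM in WAS replicate 1 and 247 CPM in WAS replicate 3, against 688 to 1360 CPM in the other 4 libraries, whereas 4 midbrain genes summed to 56.5 and 96.6 CPM there against 20.9 to 28.7 CPM. Choroid plexus genes summed to 52.2 CPM in WAS replicate 1 and 16.8 CPM in control replicate 2, against 916 to 1241 CPM elsewhere. In this bulk tissue, fewer cells of a type and less RNA per cell cannot be told apart.

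Scd2 was the most abundant member at 393 ± 30.8 CPM (SD over the 6 libraries). It took between 45.8% and 50.2% of the member counts of a library. Because 3′ sequencing yields reads from the transcript end only, levels of different genes are compared here as CPM without division by length. Fads1 followed at 118 ± 7.25 CPM, and the ranges of Scd2 and Fads1 did not overlap. Elovl5 was measured at 73.9 ± 7.11 CPM, above Elovl6 (60.2 ± 6.83 CPM) in 6 of 6 libraries. Elovl6, Scd1 (59.2 ± 8.65 CPM) and Elovl4 (55.7 ± 5.07 CPM) did not separate beyond their spread, each being above the next in 4 of 6 libraries. Elovl7 (22.1 ± 3.89 CPM), Elovl1 (16.4 ± 4.10 CPM) and Elovl2 (13.4 ± 0.926 CPM) formed a lower group with overlapping neighbours, and all 3 lay below Elovl4 in every library. Fads2 was lowest at 1.66 ± 0.700 CPM, with Fads1 71-fold and Scd2 237-fold above it. Whether the counting captured the transcript end of each member equally was not tested. These ratios are therefore of counts, and the low level of Fads2 does not show that its transcript is scarce. In the same families, Elovl3 was counted at most 1 time and Scd4 at most 3 times in a library, too low to be tested.

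**Figure D1:**
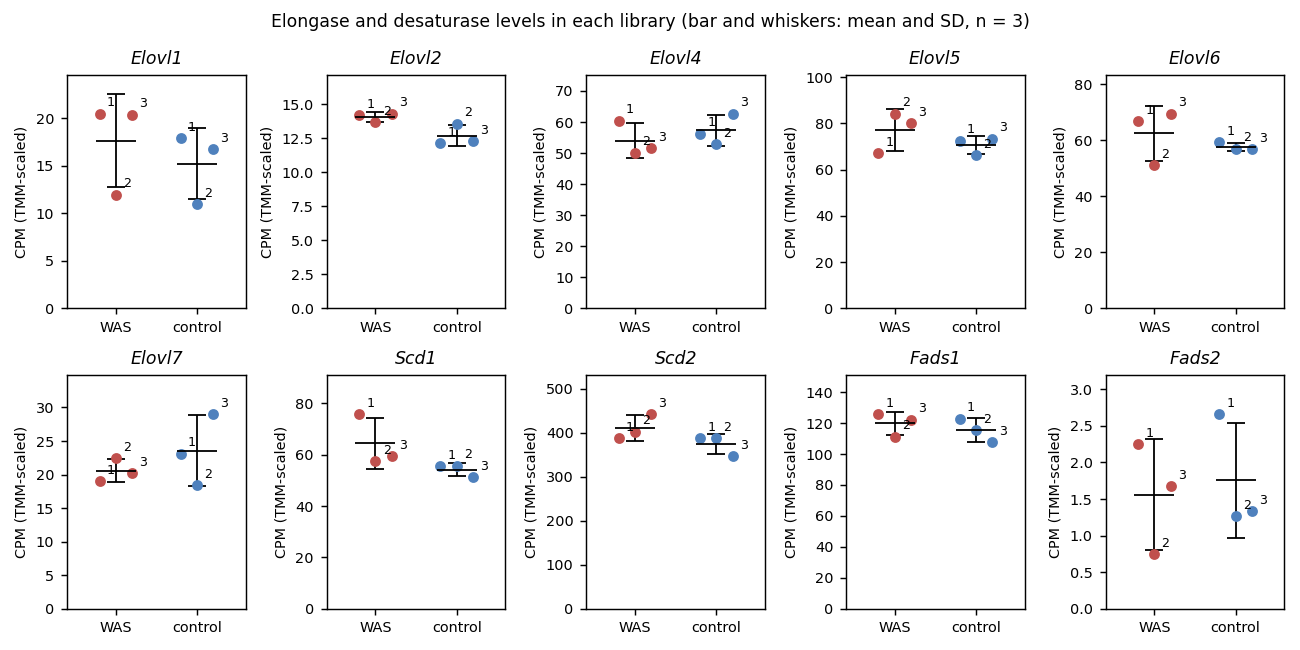
Level of each of the 10 genes in each library, as CPM after TMM scaling on a linear axis from 0, for the WAS libraries and control. Points are libraries with their replicate number, and the bar with whiskers is the mean and SD of 3 libraries; the groups are separate for Scd1 and, narrowly, for Elovl2.

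None of the 10 genes met the study's criteria (fold change of at least 1.5, unadjusted p under 0.05), met by 2.49% of the 15239 genes in edgeR's quasi-likelihood test of WAS against control. SE below stands for the standard error of a log2 fold change. At an unadjusted p under 0.05 alone, the count was 0 of 10 by edgeR, by DESeq2 and by limma, against 7.24% of all genes by edgeR, and 0 of 10 passed an adjusted p of 0.05, as did 0% of all genes. In the WAS libraries 7 of the 10 lay above and 3 below the controls, and the median log2 fold change was 0.12 (all genes tested, 0.00088). Individual values lay between -0.19 (Elovl7) and 0.25 (Scd1). For 8 of the 10 genes, the 95% interval of the fold change lay within 1.5-fold in both directions, the exceptions being Elovl1 and Fads2. With the replicate number as a block 9 intervals did so, and 6 to 8 when any 1 library was left out. WAS and control levels were fully separate in 2 of the 10 genes, Elovl2 and Scd1, both higher in the WAS libraries, against 11.7% of all genes tested, 6.12% with the WAS libraries higher. With the replicate block, 0 of 10 met the study's criteria (2.74% of all genes) or an adjusted p of 0.05 (0.322%), and 1, Scd1, had an unadjusted p under 0.05 (9.37%). Without WAS replicate 2, 0 of 10 met the criteria (5.45%) or an adjusted p of 0.05 (3.18%), and 2, Scd1 and Elovl6, had an unadjusted p under 0.05 (13.7%).

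**Figure D2:**
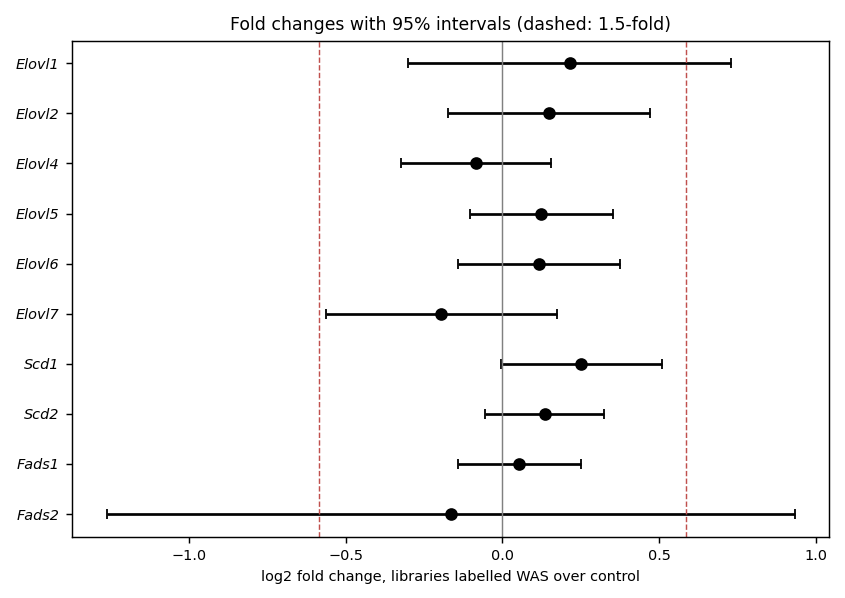
Log2 fold change of each gene, WAS libraries over control (horizontal axis), with its 95% interval from edgeR's quasi-likelihood fit (3 libraries against 3). Dashed lines mark a fold change of 1.5 in either direction, which is reached by the intervals of Elovl1 and Fads2 and by none of the other 8.

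Scd1 encodes the desaturase that makes oleate and palmitoleate in most tissues. It was measured at 75.9, 57.6 and 59.6 CPM in WAS replicates 1, 2 and 3 and at 55.5, 55.7 and 51.1 CPM in control replicates 1, 2 and 3. Every WAS library was above every control library, and WAS replicate 1 was highest. The log2 fold change was 0.25 (SE 0.12, unadjusted p = 0.0540, adjusted p = 0.695, edgeR quasi-likelihood, Benjamini-Hochberg). With the replicate number as a block, the unadjusted p of Scd1 was 0.0386 and the adjusted p 0.494. Without WAS replicate 1, the library low in striatal and choroid plexus genes, the log2 fold change was 0.11 (unadjusted p = 0.280 by edgeR). It was 0.33 without WAS replicate 2 (unadjusted p = 0.0157 by edgeR) and 0.30 without WAS replicate 3 (unadjusted p = 0.0453 by edgeR).

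Scd2, the brain form of the enzyme, was measured at 387, 403 and 443 CPM in WAS replicates 1, 2 and 3 and at 388, 387 and 348 CPM in the control replicates. The groups overlapped, with WAS replicate 3 highest, and without that library the log2 fold change of Scd2 was 0.076. On the log2 scale the difference was 0.13 (SE 0.086, adjusted p = 0.805, edgeR quasi-likelihood, Benjamini-Hochberg), and the 95% interval of the fold change ran from 0.963 to 1.25. Scd2 supplied 83.6% of the summed Scd1 and Scd2 counts in WAS replicate 1 (95% Wilson interval 82.5 to 84.6, counting error only). In the other 5 libraries the share of Scd2 was 87.2% to 88.1%, and none of their Wilson intervals, the lowest starting at 86.1%, reached that of WAS replicate 1. By group the share was 86.4 ± 2.45% in the WAS libraries and 87.4 ± 0.156% in the control libraries (SD, n = 3, exact two-sided permutation p = 1, adjusted p = 1 over 3 shares). The smallest p this design allows is 0.1, and without WAS replicate 1 the difference changed sign from -0.95 to 0.45 percentage points.
Scd3, a further desaturase of the same cluster, was also highest in WAS replicate 1. Its levels were 11.0, 4.6 and 7.02 CPM in the WAS libraries and 6.66, 7.53 and 6.47 CPM in the control libraries.

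Fads1 and Fads2 encode the desaturases that act in turn on the way from linoleate to arachidonate and from linolenate toward docosahexaenoate. Fads1 was measured at 126, 111 and 122 CPM in WAS replicates 1, 2 and 3 and at 123, 116 and 108 CPM in the control replicates, and the groups overlapped. Its log2 fold change was 0.054 (SE 0.090, adjusted p = 0.95, edgeR quasi-likelihood, Benjamini-Hochberg), from 0.0069 without control replicate 3 to 0.11 without WAS replicate 2. The 95% interval of Fads1 ran from 0.906 to 1.19 on the fold scale. Fads2 was counted 23, 7 and 17 times in the WAS libraries and 28, 13 and 13 times in the control libraries. The groups of Fads2 overlapped, and at this depth the log2 fold change of -0.17 had an SE of 0.50, with a 95% interval of the fold change from 0.417 to 1.91. Leaving out WAS replicate 2 (0.16) or control replicate 1 (0.27) changed its sign. The share of Fads2 in the summed Fads1 and Fads2 counts was 1.26 ± 0.551% in the WAS libraries and 1.48 ± 0.561% in the control libraries (SD, n = 3, exact two-sided permutation p = 0.7, adjusted p = 1 over 3 shares). All 4 desaturases together gave 70.8 ± 0.314% of the member counts in the WAS libraries and 69.7 ± 2.51% in the control libraries (SD, n = 3, exact two-sided permutation p = 0.7, adjusted p = 1 over 3 shares). The lowest desaturase share was that of control replicate 3, at 66.9% (95% Wilson interval 65.9 to 68.0), and the other control libraries were at 70.2% and 71.9%.

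Elovl5 and Elovl2 elongate polyunsaturated chains, Elovl5 acting on the shorter and Elovl2 on the longer intermediates. Elovl5 was measured at 67.0, 84.2 and 80.0 CPM in WAS replicates 1, 2 and 3 and at 72.5, 66.2 and 73.4 CPM in the control replicates. WAS replicates 2 and 3 were above all control libraries and WAS replicate 1 was among them. Elovl5 differed by a log2 fold change of 0.12 (SE 0.10, adjusted p = 0.878, edgeR quasi-likelihood, Benjamini-Hochberg). Leaving out 1 library gave between 0.056 (WAS replicate 2) and 0.21 (WAS replicate 1). For Elovl2 the levels were 14.2, 13.7 and 14.3 CPM in the WAS libraries and 12.2, 13.6 and 12.3 CPM in the control libraries. The groups were thus separated by the difference between 13.7 CPM in WAS replicate 2 and 13.6 CPM in control replicate 2. Over the 6 libraries the coefficient of variation of Elovl2 was 6.92%, below the 8.63% that counting error alone would give at its mean count. Its log2 fold change was 0.15 (SE 0.15, adjusted p = 0.897, edgeR quasi-likelihood, Benjamini-Hochberg).

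Elovl6 elongates palmitate to stearate, the step that precedes desaturation to oleate. It was measured at 66.8, 51.3 and 69.6 CPM in WAS replicates 1, 2 and 3, values on both sides of the 59.4, 57.1 and 56.8 CPM of the control replicates. The spread of Elovl6 was 9.86 CPM (SD, n = 3) in the WAS libraries and 1.42 CPM (SD, n = 3) in the control libraries. The log2 fold change was 0.12 (SE 0.12, adjusted p = 0.902, edgeR quasi-likelihood, Benjamini-Hochberg). It was 0.24 without WAS replicate 2 (unadjusted p = 0.0305 by edgeR), the only fit that left out 1 library in which Elovl6 had an unadjusted p under 0.05, and 0.032 without WAS replicate 3.

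Elovl1 elongates saturated and monounsaturated very long chains, which enter myelin sphingolipids through ceramide synthase Cers2. Its levels were 20.5, 12 and 20.4 CPM in WAS replicates 1, 2 and 3 and 17.9, 10.9 and 16.7 CPM in the control replicates. In each group the library numbered 2 was lowest, by 0.77 on the log2 scale below the mean of the other 2 in the WAS libraries and by 0.66 in the control libraries. The coefficient of variation over the 6 libraries was 25.0%, against 7.79% from counting error alone. Elovl1 differed between groups by 0.22 on the log2 scale (SE 0.23, adjusted p = 0.913, edgeR quasi-likelihood, Benjamini-Hochberg), 0.43 when WAS replicate 2 was left out and 0.026 when control replicate 2 was. The library numbered 2 deviated in the same direction in both groups for 4 of the 10 genes (Elovl1, Elovl4, Elovl6 and Fads2) and in opposite directions for 6.

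Elovl4, which makes the longest chains and is known for its expression in neurons and photoreceptors, was measured at 60.5, 50.1 and 51.5 CPM in WAS replicates 1, 2 and 3. In the control replicates Elovl4 was measured at 56.2, 53.0 and 62.7 CPM, and the groups overlapped. Its difference between groups was -0.085 on the log2 scale (SE 0.11, adjusted p = 0.933, edgeR quasi-likelihood, Benjamini-Hochberg). With 1 library left out it ran from -0.18 (WAS replicate 1) to -0.015 (control replicate 3). Elovl7 elongates saturated very long chains. Its levels were 19.0, 22.4 and 20.3 CPM in the WAS libraries and 23.1, 18.5 and 29.1 CPM in the control libraries, and control replicate 3 stood above the rest. The log2 fold change of -0.19 (SE 0.17, adjusted p = 0.881, edgeR quasi-likelihood, Benjamini-Hochberg) was -0.017 without control replicate 3 and -0.34 without control replicate 2. Without both libraries numbered 2, a choice made after seeing the data, it was -0.41 (unadjusted p = 0.0406, adjusted p = 0.474 by edgeR). The lowest levels of Elovl7 were in control replicate 2 and WAS replicate 1, which were also the libraries with the least choroid plexus RNA. Ttr, which encodes transthyretin and defines that epithelium, was at 35.7 CPM in WAS replicate 1 and 11.2 CPM in control replicate 2 against 877 to 1199 CPM in the other 4 libraries. The part of choroid plexus RNA in the levels of Elovl7 was not tested.

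By library, the summed level of the 10 genes was 839, 806 and 883 CPM in WAS replicates 1, 2 and 3 and 810, 779 and 759 CPM in the control replicates, or 843 ± 38.5 CPM and 783 ± 25.7 CPM (SD, n = 3). WAS replicate 2 lay below control replicate 1, so that the groups overlapped. Of the 10 genes, 3 had their highest level in WAS replicate 1 and 3 in WAS replicate 3, the libraries low in striatal and high in midbrain genes. Of 11168 genes with a mean of at least 50 counts, 21.0% were highest in WAS replicate 1 and 17.5% in WAS replicate 3. The lowest level of a member fell in WAS replicate 2, control replicate 2 and control replicate 3 for 3 genes each, where 16%, 15.0% and 15.8% of all these genes were lowest, and in control replicate 1 for 1 gene (13.0%). With WAS replicate 2 alone set against the 3 control libraries, the median log2 fold change of the 10 genes was -0.065 and 6 of 10 were lower. In that comparison the lone library was assumed to vary like the controls. The part of dissected regions in these differences was not tested.
The genes of myelinating cells had a summed level of 5746 to 7794 CPM in the WAS libraries and 6226 to 7120 CPM in the control libraries. This sum was highest in WAS replicate 3, as Scd2 was, but it was lowest in WAS replicate 1, whereas Scd2 was lowest in control replicate 3. None of the 10 oligodendrocyte markers had an unadjusted p under 0.05 by edgeR, and with the replicate block 1 did, the myelin gene Mag (log2 fold change 0.20, unadjusted p = 0.0448). The 9 astrocyte markers summed to between 4450 and 4592 CPM in the WAS libraries and between 4483 and 4614 CPM in the control libraries, and 6 lay higher and 3 lower in the WAS libraries, the most abundant, Slc1a2, at a log2 fold change of -0.10 (SE 0.071). Those with an unadjusted p under 0.05 by edgeR were 2, Aqp4, with a log2 fold change of 0.36 (SE 0.13), and Aldoc, with 0.22 (SE 0.089). With the replicate block 4 astrocyte markers had an unadjusted p under 0.05, Gfap (log2 fold change 0.47, unadjusted p = 0.00063 by edgeR) and Gjb6 (0.32, unadjusted p = 0.0062 by edgeR) in addition.

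**Figure D3:**
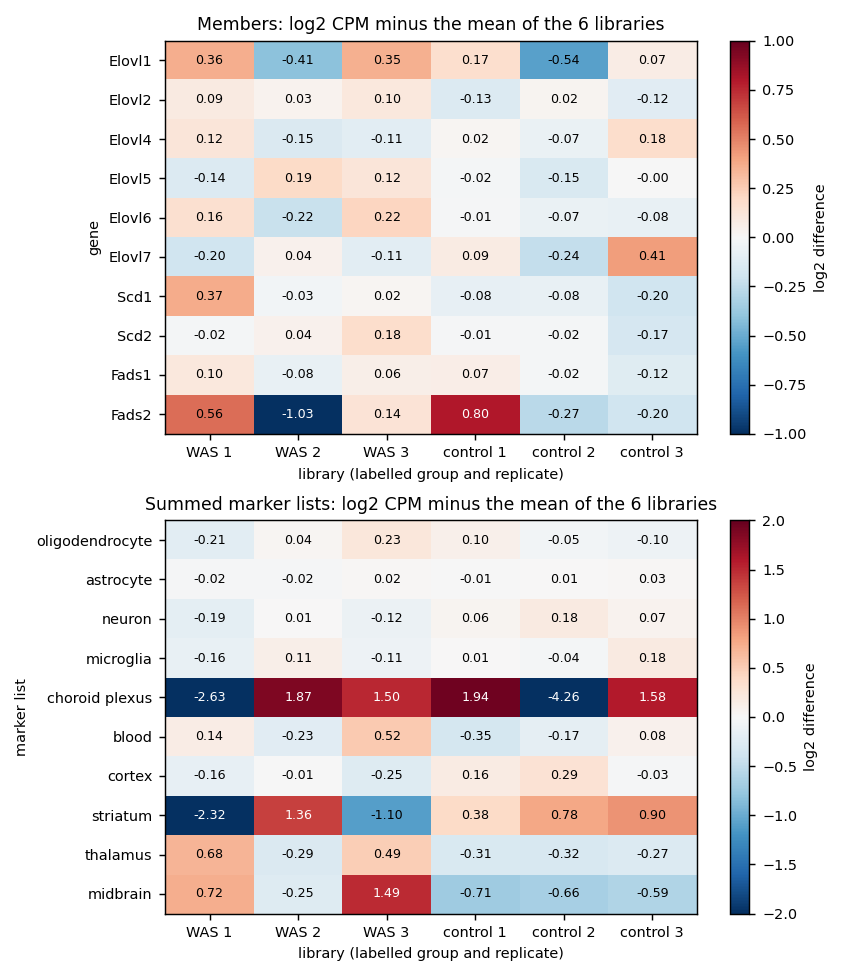
Log2 CPM of the 10 genes (top) and of summed marker lists (bottom) in each library, minus the mean over the 6 libraries, with the value written in each cell. Colours stop at 1 in the top panel and at 2 in the bottom panel; Elovl1 is lowest in the library numbered 2 of each group, and the choroid plexus, striatal and midbrain lists span a wider range between libraries than any of the 10 genes.

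The remaining enzymes of the elongation cycle did not differ past the criteria either. Relative to control, 2 of the 6 tested lay higher and 4 lower (median log2 fold change -0.028), and 0 had an unadjusted p under 0.05 by edgeR. Tecr, the reductase that closes the cycle, was at 208 ± 30.2 CPM against 214 ± 13.3 CPM (SD, n = 3) in the control libraries. Hacd3, a dehydratase of the cycle, was at 177 ± 9.59 CPM against 170 ± 5.21 CPM (SD, n = 3) in the control libraries. Of the genes of the same families outside the 10, 4 of 7 could be tested, with a median of 0.096 and 0 at an unadjusted p under 0.05. The most abundant were the dihydroceramide desaturases Degs1, at 72.4 ± 4.02 CPM against 69.5 ± 2.85 CPM (SD, n = 3) in the control libraries, and Degs2, at 49.1 ± 1.65 CPM against 49.5 ± 3.77 CPM (SD, n = 3).

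Upstream, all 7 genes of de novo fatty acid synthesis were tested, 6 were higher in the WAS libraries, the median was 0.058 and 0 had an unadjusted p under 0.05. Fasn, the synthase that makes palmitate, was at 165 ± 6.67 CPM in the WAS libraries and 154 ± 1.98 CPM (SD, n = 3) in the control libraries. For Acly, which supplies cytosolic acetyl-CoA, the levels were 86.9 ± 5.80 CPM and 85.9 ± 4.56 CPM (SD, n = 3). Among 14 regulators of lipid synthesis, 7 were higher and 7 lower, with a median of -0.0053 and 0 at an unadjusted p under 0.05. The sterol and fatty acid regulator Srebf1 had a log2 fold change of 0.083 (SE 0.14), and its paralogue Srebf2 was at -0.26 (SE 0.13, unadjusted p = 0.0826 by edgeR), with WAS replicate 1 (27.1 CPM) next to the lowest control library (27.2 CPM). The most abundant of the regulators, the proteases and escorts of SREBP processing Mbtps1 and Scap, had log2 fold changes of 0.039 (SE 0.11) and -0.11 (SE 0.094). With the replicate number as a block, 1 regulator, Mlx, had an unadjusted p of 0.0287 (log2 fold change -0.29).

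Of 21 genes of sterol synthesis and uptake, 12 were higher and 9 lower, the median was 0.028, and 1 had an unadjusted p under 0.05. This was Fdps, which makes farnesyl diphosphate, at 15.6 ± 0.912 CPM in the WAS libraries and 19.1 ± 0.886 CPM (SD, n = 3) in the control libraries. The groups of Fdps did not overlap, and its unadjusted p of 0.0465 by edgeR was 0.0601 with the replicate block. The most abundant genes of the list, Hmgcs1 and Msmo1, had log2 fold changes of -0.033 (SE 0.11) and 0.076 (SE 0.11).
Among 13 genes of fatty acid activation and uptake, 5 were higher and 8 lower, with a median of -0.0094 and 1 at an unadjusted p under 0.05. Acsl5, an acyl-CoA synthetase, was at 39.2 ± 2.55 CPM in the WAS libraries and 46.4 ± 3.76 CPM (SD, n = 3) in the control libraries (unadjusted p = 0.0399, adjusted p = 0.672, edgeR quasi-likelihood, Benjamini-Hochberg). Acsl3 and Acsl4, the most abundant of this list, had log2 fold changes of -0.0052 (SE 0.080) and -0.11 (SE 0.14).

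Downstream, 13 of 14 genes that use or export very long chains were tested, with 7 higher, 6 lower, a median of 0.026 and 1 at an unadjusted p under 0.05. Abcd2, a peroxisomal transporter of very long chain acyl-CoA, was measured at 26.7, 40.3 and 23.0 CPM in WAS replicates 1, 2 and 3 and at 42.4, 50.9 and 38.9 CPM in the control replicates. WAS replicates 1 and 3 were below all other libraries and WAS replicate 2 was within the control range. The log2 fold change was -0.56 (SE 0.19, unadjusted p = 0.0124, adjusted p = 0.585, edgeR quasi-likelihood, Benjamini-Hochberg), under a fold change of 1.5. In the same 2 libraries striatal genes were low and midbrain genes high, and the part of this in Abcd2 was not tested. The ceramide synthases Cers1 and Cers4, the most abundant of these genes, had log2 fold changes of 0.031 (SE 0.080) and 0.026 (SE 0.11). Of 5 genes of peroxisomal chain shortening, 4 were higher, the median was 0.043 and 0 had an unadjusted p under 0.05, with Scp2, a thiolase and sterol carrier protein, at 0.043 (SE 0.14).

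**Figure D4:**
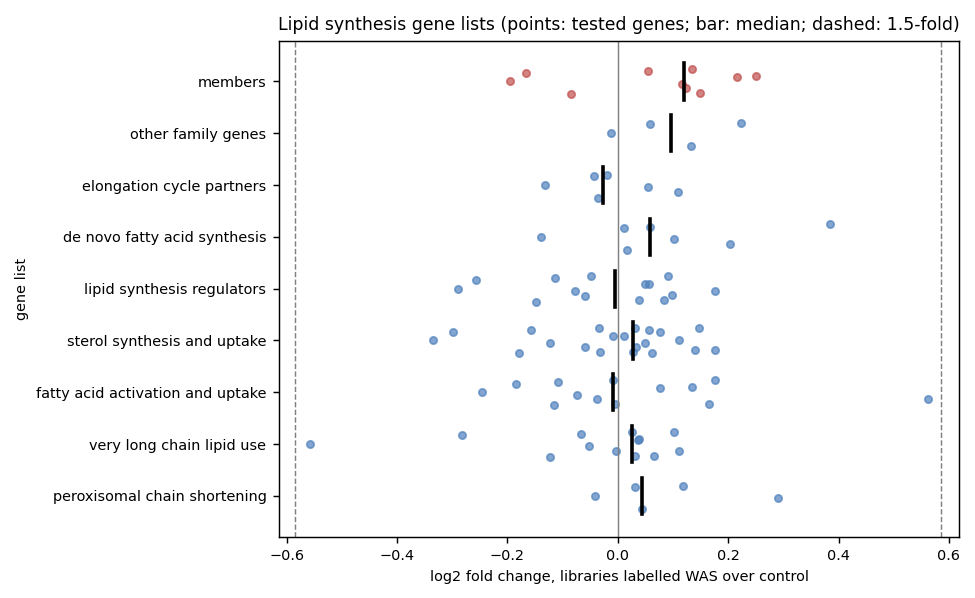
Log2 fold change, WAS libraries over control (horizontal axis), of each tested gene of the 10 members (red) and of 8 lists of related lipid genes (blue), with the median of each list as a black bar. Dashed lines mark a fold change of 1.5, which none of the genes shown reached. The points farthest out are Abcd2 at -0.56 and the fatty acid uptake gene Cd36 at 0.56. Cd36 had a mean under 1 CPM in each group and was highest, at 1.19 CPM, in WAS replicate 3.

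The genes whose levels followed each member most closely over the 6 libraries were found by Pearson's r of log2 CPM among the other genes with a mean of at least 10 CPM, 9398 in number (9399 for Fads2). They are given as a description, because with 6 libraries that share their dissection a search over this many genes can find high values by itself. For the desaturases they were Gpr37l1 (0.997) and Gbf1 (0.993) for Scd1, L1cam and Rassf2 (both 0.984) for Scd2, Polr2c (0.986) and A230050P20Rik (0.985) for Fads1, and Ofd1 (0.998) and Exoc6b (0.986) for Fads2. For the elongases of saturated chains they were Abhd4 (0.997) and Rnf216 (0.992) for Elovl1, Lgals8 (0.9996) and Lrig1 (0.993) for Elovl6, and S100a16 (0.980) and Casz1 (0.978) for Elovl7. Elovl4 was followed by Pdap1 and Dhx38 (both 0.988), Elovl5 by Car12 (0.978) and Nfe2l2 (0.97), and Elovl2 by Asic2 (0.997) and Pcm1 (0.981). No member appeared among the nearest genes of another.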

How the data were processed

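Gene expression was measured in 3 libraries labelled WAS and 3 labelled control, given as biological replicates. The authors prepared QuantSeq 3′ libraries from 500 ng of total RNA, sequenced single-end reads of 75 bases, used Bowtie2 for alignment and counted reads that aligned once or several times. The submitters' processing notes name bedtools and mm10. The annotation, versions and strand setting are not given in the sources used here. The deposited values are raw read counts per gene symbol, before the authors' quantile normalization. Entries with a repeated symbol (44) were not merged.

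After TMM scaling, edgeR 4.0.16 (quasi-likelihood test, R 4.3.3) was run on 15239 genes with a mean log2(quantile-normalized count + 1) of at least 2, with Benjamini-Hochberg adjustment over all of them. Standard errors were obtained from each log2 fold change and the root of its F statistic. The prior count for log2 CPM was 2. The alternatives were total-count scaling, DESeq2 1.42.0, limma 3.58.1 on quantile-normalized log2 counts, other filters, a replicate block and libraries left out. Shares of counts were compared by exact permutation (scipy 1.17.1), with adjustment over the 3 shares. On simulated counts for 15239 genes with 200 changed by 1 on the log2 scale, the WAS against control test found 97.5% of these at the study's criteria and also called 282 unchanged genes. The changed genes were drawn only from those above a minimum CPM. The share found does not apply to Fads2, which lay below that level, or to changes as small as those of the members.

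Deviations from the group means correlated at 0.116, 0.179 and 0.131 between libraries of the same number over 11168 genes with a mean of at least 50 counts, and at 0.0662, 0.0846 and 0.0873 over all genes tested. The main fit left the replicate number out, and a fit with the number as a block was run beside it. Blocked values or counts are given where they change a reported call, but the labels do not say what a number shares.

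The 10 members and the lists of lipid and marker genes were chosen with earlier results of these data known. The genes named are the 10 members, from each list the 2 most abundant tested genes and up to 4 with the smallest unadjusted p under 0.05, and the 2 genes nearest to each member. The marker lists are given by their sums and counts, and some results the rule names are not reported here. Other genes named, such as Srebf1, Srebf2, Mlx, Scd3, Cd36, Cdc20, Elovl3, Scd4, Mag, Gfap, Gjb6, Snap25, Otx2, Slc18a2 and Adora2a, were chosen after their values were seen. Intervals of shares cover counting error only, since no removal of PCR copies is stated. Between any 2 libraries, chi-square per degree of freedom over genes was at least 5.34, so all 6 were used. P-values measure only the spread between these libraries; whether each came from 1 mouse is not given in the sources used here.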

Additional observations from a re-analysis of the deposited data

How the results depend on the processing

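None of the 10 genes met the study's criteria or an adjusted p of 0.05 in any of the 14 alternatives. Members with an unadjusted p under 0.05 numbered 1 (Scd1) with total-count scaling (7.66% of all genes), without a filter on low counts (6.9%) and with the replicate block (9.37%), 0 to 2 with each library left out (2 without WAS replicate 2, Scd1 and Elovl6, against 13.7% of all genes, and 1 without WAS replicate 3, Scd1, against 4.27%) and 2 without both libraries numbered 2 (Scd1 and Elovl7, against 9.86%). Over all genes, 380 met the study's criteria, 417 with the replicate block, 261 to 831 with each library left out (831 without WAS replicate 2) and 682 without both libraries numbered 2. These counts come from the fits used here, and the authors, who named no test, reported fewer genes. The median log2 fold change of the members was 0.12, 0.11 with the replicate block, 0.058 to 0.15 with each library left out and -0.065 with WAS replicate 2 alone against control, where Elovl1 (-0.35), Elovl6 (-0.18) and Fads1 (-0.058) reversed. This setting and that without both libraries numbered 2 were chosen after seeing the data. Fads2 reversed without WAS replicate 2 (0.16) or control replicate 1 (0.27) and ran from -0.53 to 0.27 with each library left out. With each library left out, the difference in the Scd2 share ran from -1.82 to 0.45 percentage points, in the Fads2 share from -0.47 to 0.10 (0.079 without WAS replicate 2) and in the desaturase share from -0.22 (without control replicate 3) to 2.25. Pairing by replicate number left these differences at -0.95, -0.22 and 1.15 points (exact sign-flip p = 1, 0.5 and 0.75). The causes were not tested. The block changed no other call on a member. Counting error limits Fads2, at 7 to 28 counts.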

Other observations

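Marker lists outside the lipid genes gave the following counts by edgeR at an unadjusted p under 0.05. Of 9 neuron markers, Slc17a6 was higher (log2 fold change 1.78, standard error 0.44) and Slc17a7, Rbfox3 and Syt1 were lower in the WAS libraries. The 4 midbrain genes gave 3 (Ddc, Th and Slc6a3) and the 4 thalamic genes 2 (Tcf7l2 and Prkcd), all higher. Of 5 meningeal fibroblast genes, Dcn was higher. The lists of striatum, blood, microglia, endothelium and mural cells, choroid plexus and oligodendrocyte precursors gave 0. With the replicate block, the striatal list gave 4 with fitted log2 fold changes below 0, although its summed level in WAS replicate 2 (1360 CPM) was above every control library, the blood list 3, all higher, the choroid plexus list 1 (Otx2, higher), the neuron list 5 (Snap25 in addition, lower) and the midbrain list 4 (Slc18a2 in addition, higher). The higher levels were those of WAS replicates 1 and 3 for Slc17a6 (168, 30.4 and 132 CPM in WAS replicates 1, 2 and 3 against 28.0 to 38.3 CPM in the control libraries) and for Slc6a3 (107, 0 and 100 counts against 0 to 3). Tcf7l2 was likewise at 231, 41.5 and 171 CPM against 20.9 to 39.3 CPM. Of the genes named in this paragraph, 0 passed an adjusted p of 0.05 without the block. With the block 5 did, at adjusted p-values by edgeR of 0.0058 (Tcf7l2), 0.020 (Dcn), 0.030 (Th), 0.044 (Prkcd) and 0.0495 (Ddc).

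Drd2, a striatal receptor gene, was counted 1 time in control replicate 2 and is listed at 0 in the other 5 libraries, while Adora2a, a gene of the same neurons, was counted 5, 465 and 73 times in WAS replicates 1, 2 and 3 and 279, 293 and 348 times in the control replicates.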
